A study of Mus musculus with 5 samples.

Results

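The 30 genes described here encode lysosomal proteins and subunits of the proton pump that acidifies lysosomes. They were taken from a list of gene names and found by symbol among the 32285 genes counted in single-cell RNA-seq of mouse neutrophils. The list sets no threshold on a measured value, but it was chosen with earlier results of these data known. The list holds 8 proteases, 5 membrane proteins, 4 glycosidases, 5 genes of lipid handling or enzyme activation, the regulator Tfeb and 7 proton pump subunits, 3 of the membrane sector V0 and 4 of the cytosolic sector V1.

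Lysosomes break down proteins, lipids and sugars with hydrolases that work at acid pH, and the vacuolar proton pump supplies that acidity by moving protons across the lysosomal membrane at the cost of ATP. In neutrophils some of these enzymes are also found in the azurophil granules, which are related to lysosomes and form early in maturation. The transcription factor TFEB binds the DNA motif CACGTG within promoters of many lysosomal genes and raises their transcription.

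The neutrophils came from female wild-type C57BL/6J mice and were sorted from bone marrow, peripheral blood and lung. There was 1 gene expression library from naive mice without a tumour, 1 from mice bearing AT3 tumours and 1 from mice bearing AT3-gcsf tumours; AT3 is a mouse mammary carcinoma line, and the labels do not spell out the gcsf change. Each library pooled 3 samples marked with hashtag antibodies, which carry a DNA barcode: MHTO3, MHTO4 and MHTO5 in the naive and AT3-gcsf libraries, and MHTO7, MHTO8 and MHTO10 in the AT3 library. No label used here ties a tag to a tissue, so the populations are called by tag and whether a tag number shared by the naive and AT3-gcsf libraries marks the same tissue is not known. Mouse age and the number of mice behind each pool are likewise not stated in the labels.

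Cells were compared where 1 named tag held at least 80% of the named tag counts with at least 20 counts, and where S100a8 plus S100a9, the main neutrophil alarmin transcripts, made up at least 2% of the UMIs (unique molecular identifiers, each marking 1 captured transcript). These were 7011 naive, 7438 AT3 and 10063 AT3-gcsf cells, with 26566384, 50140655 and 89053674 UMIs and a median of 2775, 4812 and 7611 UMIs per cell. All 10 neutrophil markers other than S100a8 and S100a9, which the cell rule used, were at 20 CPM (counts of a gene's UMIs in the summed cells, scaled to a common total) or more in each of the 9 populations. With S100a8 and S100a9 included, 11, 12 and 11 of 12 markers also reached 20 CPM in the naive, AT3 and AT3-gcsf tagged cells under 2%. That minimum therefore does not set the compared cells apart from the cells left out. The naive and AT3 libraries shared 44 cell barcodes, and each shared 20 with the AT3-gcsf library. The populations differed in make-up. The secondary granule gene Camp reached 21031 CPM in naive MHTO4 and 10517 CPM in AT3 MHTO7. The chemokine gene Cxcl2 reached 7196, 6091 and 4915 CPM in naive MHTO5, AT3 MHTO8 and AT3-gcsf MHTO5. With 1 library per condition there is no spread between mice and no test: a gene was called 2-fold different where the log2 ratio of (CPM + 5) was at least 1 in size and the higher library had at least 20 CPM. Intervals are exact Poisson 95% intervals, which cover counting error only.

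The promoters of the listed genes show where the TFEB-type motif lies. RefSeq promoter windows (GRCm38.p6, 250 bases before to 50 after a start site) were found for 25 of the 30 genes. CACGTG, which reads the same on both strands, lay in the windows of 10 of these 25 genes (40.0%), against 8.09% of the 27025 genes with a window. The longer CACGTGAC, searched on both strands and containing CACGTG, was in 8 of 25 (32.0%), against 2.55% of all genes. Of 86 lysosomal genes outside the list with a window, 22.1% held CACGTG and 12.8% held CACGTGAC. The stretches below hold the 4 motifs of Lamp1, the pair in Ctsa, the motifs of Gla and the single motif of the pump subunit Atp6v0d1, with CACGTG in capitals, 5′ to 3′ on the strand of the gene.
Lamp1 (chr8:13159088-13159163, plus strand): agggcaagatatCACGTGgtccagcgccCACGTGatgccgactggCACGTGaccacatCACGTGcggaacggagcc
Ctsa (chr2:164833749-164833795, plus strand): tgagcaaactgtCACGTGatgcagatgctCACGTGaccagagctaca
Gla (chrX:134601215-134601244, minus strand): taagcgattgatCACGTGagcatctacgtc
Gla (chrX:134601182-134601211, minus strand): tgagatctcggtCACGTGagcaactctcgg
Atp6v0d1 (chr8:105566050-105566079, minus strand): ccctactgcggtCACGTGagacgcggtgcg

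CACGTG was also in the windows of Ctsd, Lgmn, Mcoln1, Glb1, Atp6v0e and Atp6v1a. It was not in the windows of Ctsc, Ctss and Psap, 3 of the 4 genes past 2-fold between libraries below, and Ctsb, the fourth, had no window in the table. The windows of Ctsc, Ctss and Gla held GAGGAAGT, the core bound by the myeloid factor PU.1, searched on both strands. That core was in 12.0% of the listed genes with a window and in 3.69% of all genes. Among the 86 lysosomal genes outside the list with a window it was in 2.33%. These 3 stretches are the only matches among the listed genes with a window. Psap, also past 2-fold, had no match, and Ctsb had no window. Capitals mark the reverse complement of GAGGAAGT.
Ctsc (chr7:88277923-88277952, plus strand): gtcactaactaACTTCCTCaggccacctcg
Ctss (chr3:95526773-95526802, plus strand): aatgaaagttcACTTCCTCattgtggatgc
Gla (chrX:134601135-134601164, minus strand): tgagatgccgcACTTCCTCctcctttggaa
The STAT-type motif TTCCNGGAA was in none of the 25 windows, and in 1.35% of all genes. A match describes these letters only and was not read as a bound site.

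The listed genes together made up a small and similar part of the transcriptome in each library. Their UMIs summed to 5534 CPM (5506 to 5563) in naive, 5245 CPM (5225 to 5265) in AT3 and 6308 CPM (6291 to 6324) in AT3-gcsf neutrophils. The 7 pump subunits gave 2242, 2303 and 2388 CPM of this, and the other 23 genes 3292, 2942 and 3920 CPM. Within these 23, the proteases summed to 1045, 1389 and 2123 CPM and the membrane proteins to 1150, 862 and 883 CPM. The glycosidases summed to 214, 153 and 166 CPM, and the genes of lipid handling or enzyme activation to 847, 516 and 730 CPM. Tfeb stood at 35.3, 22.9 and 17.6 CPM. Among populations the sum of the 30 genes ran from 4209 CPM in naive MHTO4 and 4358 CPM in AT3 MHTO7 to 7021 CPM in naive MHTO3. In the AT3-gcsf library the 3 populations lay between 6007 and 6605 CPM. The tags with the lowest sums had the highest S100a8 plus S100a9 share, 37.3% of UMIs in naive MHTO4 and 39.5% in AT3 MHTO7, against 13.1% to 29.7% in the other 7 populations; the part of these transcripts in the lower sums was not tested.

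**Figure D1:**
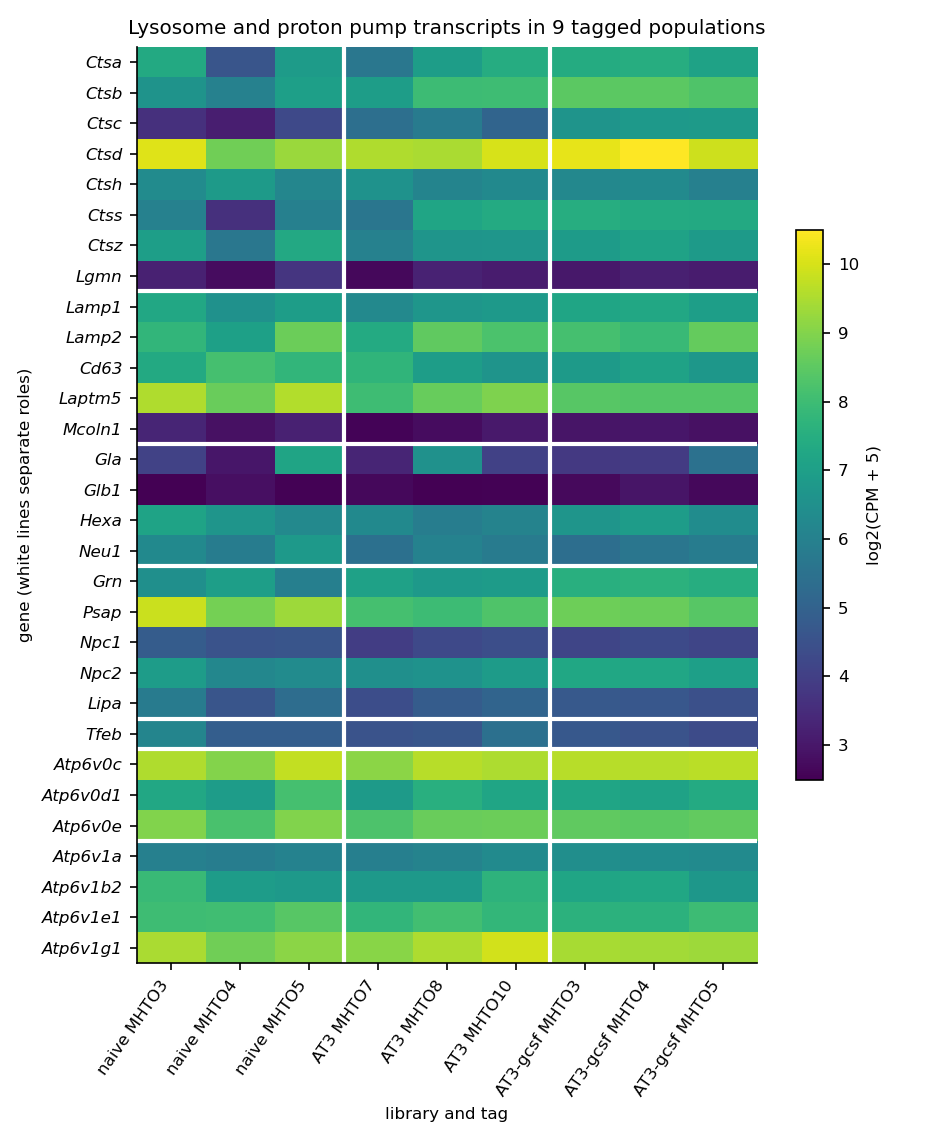
Level of each of the 30 genes as log2(CPM + 5), by colour, in the 9 tagged populations, with white lines between roles and libraries; a row compares 1 gene across populations. Ctsb and Ctsc were brightest in the AT3-gcsf columns, and Gla was brightest in naive MHTO5 and AT3 MHTO8.

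Of the 30 genes, 26 reached 20 CPM in at least 1 library and 4 did not: the protease Lgmn, the calcium channel Mcoln1, the galactosidase Glb1 and the cholesterol transporter Npc1. Lgmn lay between 1.33 and 8.28 CPM in the 9 populations, Mcoln1 between 0.951 and 4.96 CPM, Glb1 between 0.629 and 2.67 CPM, and Npc1 between 10.4 and 23.5 CPM. No ratio of these 4 genes was called. Ctsc reached 20 CPM only in the AT3 and AT3-gcsf libraries, and Lipa and Tfeb reached it only outside AT3-gcsf, so for these 3 the minimum was met through the libraries where they were high and a difference was partly set by the filter.

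In AT3 against naive neutrophils, 3 of the 26 genes were at least 2-fold higher, the proteases Ctsb, Ctsc and Ctss, where 2.06% of the 3939 genes measured passed that rule. One gene, Psap, was at least 2-fold lower, where 6.35% of genes were. In AT3-gcsf against naive neutrophils the same 3 proteases were higher (5.38% of 4106 genes) and 0 of 26 were lower (21.0%). In AT3-gcsf against AT3 neutrophils Ctsc alone was higher (2.42% of 3551 genes) and 0 of 26 were lower (2.56%). The median log2 ratio of the 26 genes was -0.15, 0.10 and 0.21 in these comparisons, beside -0.34, -0.37 and -0.02 over all genes measured. The comparisons share libraries, so their values are given side by side and not as independent results.

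Another reading sets no minimum fold and passed a larger share of all genes than the 2-fold rule in each comparison and direction. It asks whether every population of 1 library lay beyond every population of the other, over 9 pairs. In AT3 against naive this held upward for 1 of 26 genes, Ctsc (3.07% of all genes), and downward for 1, Psap (12.7%). In AT3-gcsf against naive it held upward for 6, Ctsb, Ctsc, Ctss, Grn, Npc2 and Atp6v1a (10.8%), and downward for 6, Cd63, Laptm5, Neu1, Psap, Tfeb and Atp6v1e1 (29.5%). In AT3-gcsf against AT3 it held upward for 8, Ctsb, Ctsc, Ctsz, Lamp1, Hexa, Grn, Psap and Npc2 (13.3%), and downward for 0 (9.60%).

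**Figure D2:**
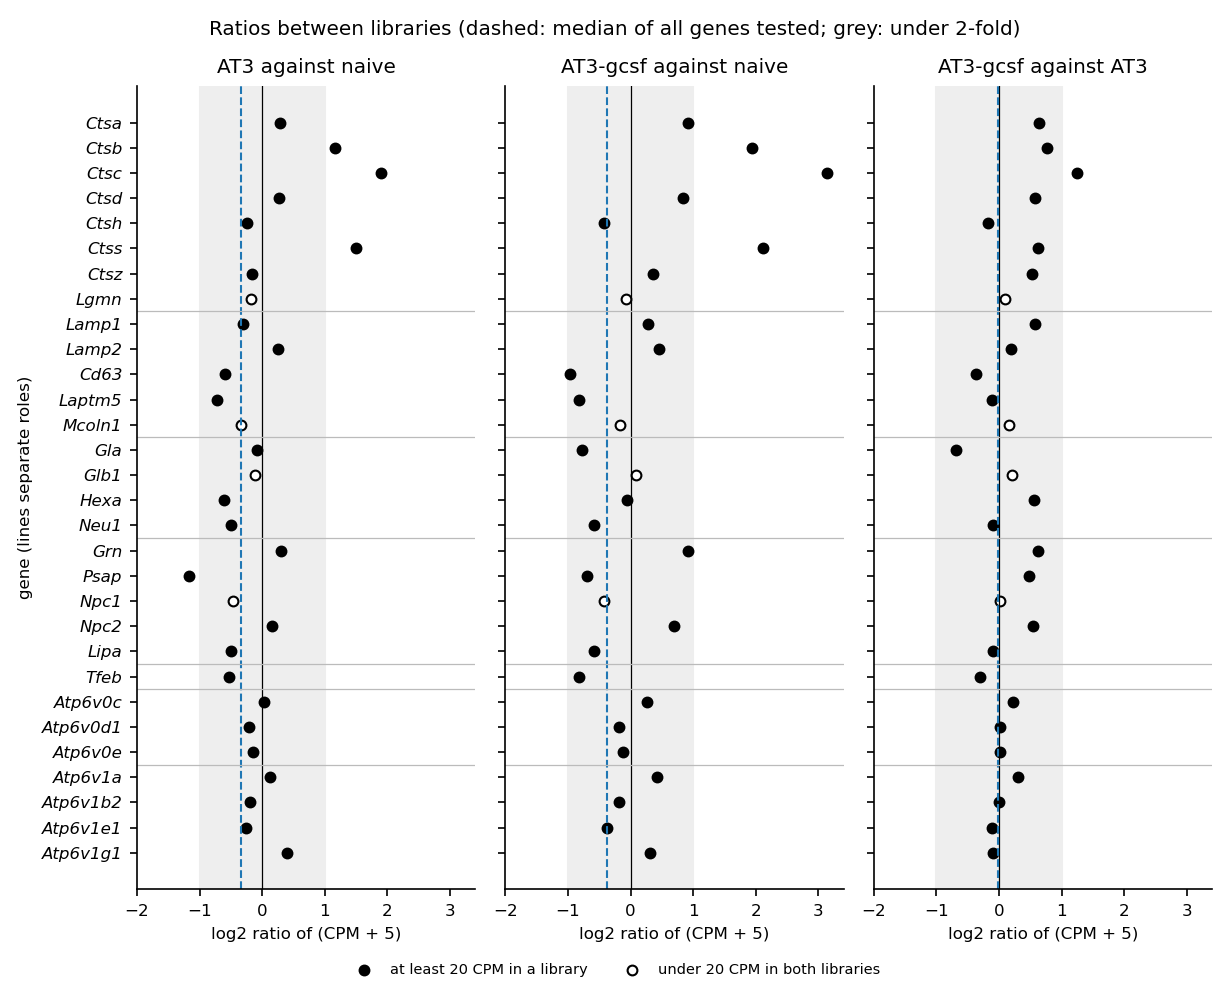
Log2 ratio of (CPM + 5) of each gene in the 3 comparisons between libraries; filled points reached 20 CPM in a library, the dashed line is the median of all genes measured, and the grey band is under 2-fold. Ctsb, Ctsc and Ctss lie right of the band in both comparisons with naive, Psap lies left of it in AT3 against naive, and the 7 pump subunits at the bottom lie inside it.

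Ctsc encodes the dipeptidyl peptidase that trims and so activates the neutrophil serine proteases (ENSMUSG00000030560, chr7:88278085-88310888, plus strand). Its level was 7.15, 4.05 and 14.1 CPM in the naive tags MHTO3, MHTO4 and MHTO5, then 37.5, 51.6 and 28.7 CPM in AT3 MHTO7, MHTO8 and MHTO10, and 94.8, 105 and 110 CPM in AT3-gcsf MHTO3, MHTO4 and MHTO5. The 3 libraries did not overlap: every AT3 population lay above every naive one, and every AT3-gcsf population above every AT3 one. Over the whole libraries Ctsc stood at 7.45 CPM (6.45 to 8.57), 41.1 CPM (39.3 to 42.9) and 104 CPM (102 to 106), giving a log2 ratio of 1.89 for AT3 against naive, 3.13 for AT3-gcsf against naive and 1.25 for AT3-gcsf against AT3. The 7 early neutrophil markers, Elane and Mpo among them, summed to 13.1 to 122 CPM in naive, 20.5 to 50.2 CPM in AT3 and 24.2 to 333 CPM in AT3-gcsf populations. In AT3-gcsf MHTO3, MHTO4 and MHTO5 the sums were 32.7, 333 and 24.2 CPM. Their part in the level of Ctsc was not tested.

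Ctsb encodes cathepsin B, a cysteine protease of the lysosome (ENSMUSG00000021939, chr14:63122462-63145923, plus strand, overlapping Fdft1 on the other strand). Its level was 92.0, 59.8 and 123 CPM in the naive populations MHTO3, MHTO4 and MHTO5, 118, 249 and 255 CPM in AT3 MHTO7, MHTO8 and MHTO10, and 353, 356 and 312 CPM in AT3-gcsf MHTO3, MHTO4 and MHTO5. AT3 MHTO7 lay below naive MHTO5, so AT3 and naive populations overlapped, while all 3 AT3-gcsf populations lay above the other 6. The log2 ratio was 1.16 for AT3 against naive, 1.94 for AT3-gcsf against naive and 0.77 for AT3-gcsf against AT3. Ctsb took 1.53% of the UMIs of the 30 genes in naive, 3.73% in AT3 and 5.35% in AT3-gcsf neutrophils.

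Ctss encodes cathepsin S, a cysteine protease known for cutting the invariant chain in antigen-presenting cells (ENSMUSG00000038642, chr3:95526786-95556403, plus strand). Its level was 59.1, 7.25 and 58.4 CPM in the naive tags MHTO3, MHTO4 and MHTO5, 44.5, 142 and 161 CPM in AT3 MHTO7, MHTO8 and MHTO10, and 172, 164 and 158 CPM in AT3-gcsf MHTO3, MHTO4 and MHTO5. It was low in both populations rich in Camp, naive MHTO4 and AT3 MHTO7, and nearly level across the AT3-gcsf tags. The log2 ratio was 1.50 for AT3 against naive and 2.12 for AT3-gcsf against naive. Without naive MHTO4 the ratio for AT3 against naive was 0.78 for Ctss and 0.83 for Ctsb, so both calls ended and Ctsc alone stayed at least 2-fold higher. Without AT3 MHTO8 the ratio of Ctsb was 0.90, which also ended its call.

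Macrophages, monocytes and dendritic cells also express Ctsb and Ctss. The 10 strict macrophage markers summed to 23.4 to 32.8 CPM in naive, 8.70 to 21.6 CPM in AT3 and 24.4 to 26.3 CPM in AT3-gcsf populations, and at most 1 of 10 reached 20 CPM in any of them, Adgre1. Adgre1 was at 6.78 to 27.9 CPM in naive, 6.75 to 17.8 CPM in AT3 and 23.4 to 25.9 CPM in AT3-gcsf populations. Marco was at most 2.67 CPM, and C1qa was between 0.0279 and 4.52 CPM, in the 9 populations. The broader list of 16 macrophage genes summed to 311 to 2863, 293 to 1305 and 479 to 531 CPM in the naive, AT3 and AT3-gcsf populations, with Chil3, which neutrophils also express, giving 2764 CPM in naive MHTO4. Cd68, also on that list, was at 68.4, 67.5 and 104 CPM in the naive, AT3 and AT3-gcsf libraries. The 10 dendritic cell markers summed to 83.1 to 602, 9.93 to 77.6 and 5.99 to 21.9 CPM, and the 11 monocyte markers to 321 to 785, 350 to 786 and 306 to 438 CPM. Without cells holding at least 2 UMIs of the strict macrophage, dendritic and lymphocyte markers together, a setting added after the data were seen, the log2 ratio for AT3-gcsf against naive was 2.03 for Ctsb, 3.27 for Ctsc and 2.23 for Ctss. Monocyte markers were not among those used for this removal. The part of macrophages, monocytes and dendritic cells in the levels of Ctsb and Ctss was not tested.

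**Figure D3:**
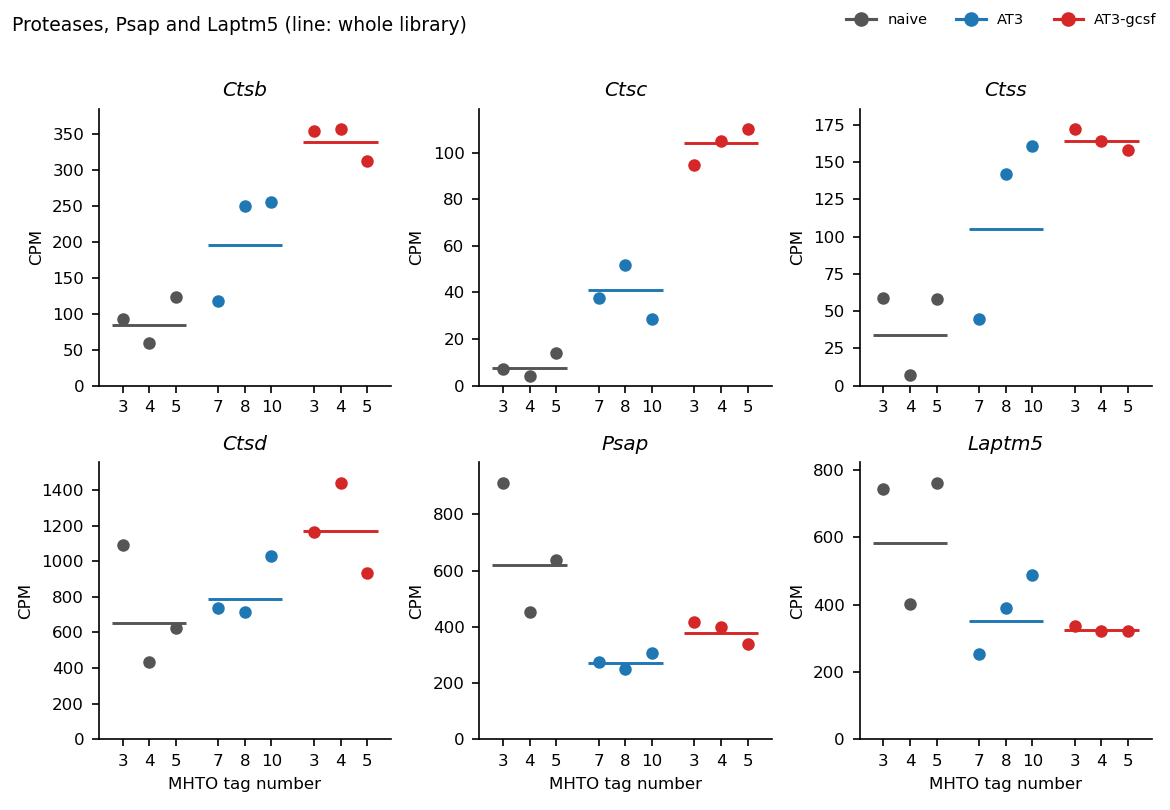
Level in CPM of the proteases Ctsb, Ctsc, Ctss and Ctsd, the saposin precursor Psap and the membrane protein Laptm5, with 1 point per tagged population and a line at the whole library. The AT3-gcsf points of Ctsc lie between 94.8 and 110 CPM, above all AT3 and naive points, and the 3 AT3 points of Psap lie between 250 and 308 CPM, below all naive points.

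The other proteases gave no call between libraries. Ctsd encodes cathepsin D, an aspartic protease, and was at 1089, 432 and 623 CPM in the naive tags MHTO3, MHTO4 and MHTO5, at 737, 716 and 1032 CPM in AT3 MHTO7, MHTO8 and MHTO10, and at 1167, 1442 and 936 CPM in AT3-gcsf MHTO3, MHTO4 and MHTO5. The populations of the 3 libraries overlapped, with log2 ratios of 0.27, 0.84 and 0.57. Ctsa encodes the carboxypeptidase that protects galactosidase and sialidase in the lysosome. Its level was 160, 19.4 and 114 CPM in the naive populations, 46.0, 119 and 168 CPM in the AT3 populations and 167, 172 and 134 CPM in the AT3-gcsf populations, in the same tag order. As for Ctss, naive MHTO4 and AT3 MHTO7 were the low points, and without naive MHTO4 the log2 ratio of Ctsa for AT3-gcsf against naive was 0.18, compared with 0.91 when it was included. For AT3 against naive the ratio of Ctsa was 0.28, and -0.46 without naive MHTO4.

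Ctsz, an exopeptidase, was at 120, 45.5 and 154 CPM in the naive tags MHTO3, MHTO4 and MHTO5, at 60.0, 97.3 and 98.7 CPM in AT3 MHTO7, MHTO8 and MHTO10, and at 114, 134 and 112 CPM in AT3-gcsf MHTO3, MHTO4 and MHTO5. The AT3-gcsf populations lay above all AT3 populations and within the naive range. Ctsh, an aminopeptidase, lay between 57.8 and 111 CPM over the 9 populations, with its highest level in naive MHTO4, where most other proteases were lowest. Its log2 ratio for AT3-gcsf against naive was -0.42, and 0.15 when scaled by TMM (trimmed mean of M values, which compares libraries over the bulk of their genes).

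Psap encodes prosaposin, the precursor of the saposins that present lipids to glycosidases (ENSMUSG00000004207, chr10:60277627-60302597, plus strand). Its level was 913, 451 and 639 CPM in the naive tags MHTO3, MHTO4 and MHTO5, 276, 250 and 308 CPM in AT3 MHTO7, MHTO8 and MHTO10, and 417, 399 and 337 CPM in AT3-gcsf MHTO3, MHTO4 and MHTO5. The 3 libraries did not overlap, and AT3 was the lowest. The log2 ratio was -1.17 for AT3 against naive, -0.70 for AT3-gcsf against naive and 0.47 for AT3-gcsf against AT3. Under TMM scaling the ratio for AT3 against naive was -0.68, which ended the call, and without naive MHTO3 it was -0.91, which also ended it. TMM moved the median of all genes in that comparison from -0.34 to 0.13.

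Grn encodes progranulin, a lysosomal and secreted protein that binds prosaposin. It was at 83.9, 120 and 56.7 CPM in the naive tags MHTO3, MHTO4 and MHTO5, at 129, 106 and 114 CPM in AT3 MHTO7, MHTO8 and MHTO10, and at 182, 196 and 172 CPM in AT3-gcsf MHTO3, MHTO4 and MHTO5. All AT3-gcsf populations lay above the other 6, with a log2 ratio of 0.91 against naive and 0.62 against AT3. Npc2, which carries cholesterol inside the lysosome, lay between 67.7 and 147 CPM, and its log2 ratio was 0.69 for AT3-gcsf against naive. Lipa, the acid lipase, was at 51.7, 19.1 and 35.7 CPM in the naive tags MHTO3, MHTO4 and MHTO5, at 15.8, 23.1 and 28.8 CPM in the AT3 populations and at 21.8, 20.5 and 17.0 CPM in the AT3-gcsf populations. Only the naive populations of Lipa differed 2-fold among themselves.

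Of the membrane proteins, 4 reached 20 CPM and 0 of 4 passed 2-fold between libraries, a count too small to set apart from the all-gene shares above. Laptm5, a lysosomal protein of blood cells, was at 744, 401 and 762 CPM in the naive tags MHTO3, MHTO4 and MHTO5, at 253, 391 and 487 CPM in AT3 MHTO7, MHTO8 and MHTO10, and at 337, 321 and 320 CPM in AT3-gcsf MHTO3, MHTO4 and MHTO5. All AT3-gcsf populations lay below all naive ones, with a log2 ratio of -0.83, which is under 2-fold. Cd63, a tetraspanin of azurophil granules and lysosomes, was at 159, 278 and 213 CPM in the naive populations, at 208, 118 and 94.3 CPM in the AT3 populations and at 110, 134 and 101 CPM in the AT3-gcsf populations. It ran opposite to most listed genes within the naive and AT3 libraries, being highest in naive MHTO4 and AT3 MHTO7. Its log2 ratio was -0.60 for AT3 against naive and -0.97 for AT3-gcsf against naive, and the latter was -0.38 under TMM scaling.

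Lamp1 and Lamp2 encode the most abundant glycoproteins of the lysosomal membrane. Lamp1 lay between 72.3 and 152 CPM over the 9 populations, with log2 ratios of -0.30, 0.28 and 0.58 in the 3 comparisons, the first of which was 0.17 under TMM scaling. Lamp2 was at 210, 126 and 413 CPM in the naive tags MHTO3, MHTO4 and MHTO5, at 162, 367 and 296 CPM in AT3 MHTO7, MHTO8 and MHTO10, and at 277, 235 and 381 CPM in AT3-gcsf MHTO3, MHTO4 and MHTO5. In each library it was highest in the population with the most Cxcl2, and the libraries overlapped.

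Gla encodes alpha-galactosidase A, which cleaves galactose from glycolipids (ENSMUSG00000031266, chrX:134588149-134601125, minus strand), and it had the widest range between tags of the listed genes that reached 20 CPM. Its level was 12.0, 2.80 and 139 CPM in the naive tags MHTO3, MHTO4 and MHTO5, 4.90, 88.8 and 11.5 CPM in AT3 MHTO7, MHTO8 and MHTO10, and 9.26, 9.86 and 39.6 CPM in AT3-gcsf MHTO3, MHTO4 and MHTO5. In each library 1 population stood apart, the one with the most Cxcl2, and Gla reached 20 CPM through that population alone, so it entered the count of each library only by being high there. The log2 ratio of the highest to the lowest population was 4.21 in naive, 3.24 in AT3 and 1.65 in AT3-gcsf neutrophils. A ratio between whole libraries rests on those populations: for AT3 against naive it was -0.08, and it was -1.92 without AT3 MHTO8 and 1.97 without naive MHTO5.

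Of the other glycosidases, Neu1, a sialidase, lay between 36.6 and 105 CPM and was also highest in naive MHTO5, AT3 MHTO8 and AT3-gcsf MHTO5. Its log2 ratio was -0.59 for AT3-gcsf against naive, and -0.04 under TMM scaling. The highest AT3-gcsf population, at 52.5 CPM, lay just below the lowest naive one, at 52.9 CPM. Hexa, a subunit of hexosaminidase, lay between 54.3 and 137 CPM, and its log2 ratio was -0.61 for AT3 against naive and 0.56 for AT3-gcsf against AT3.

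**Figure D4:**
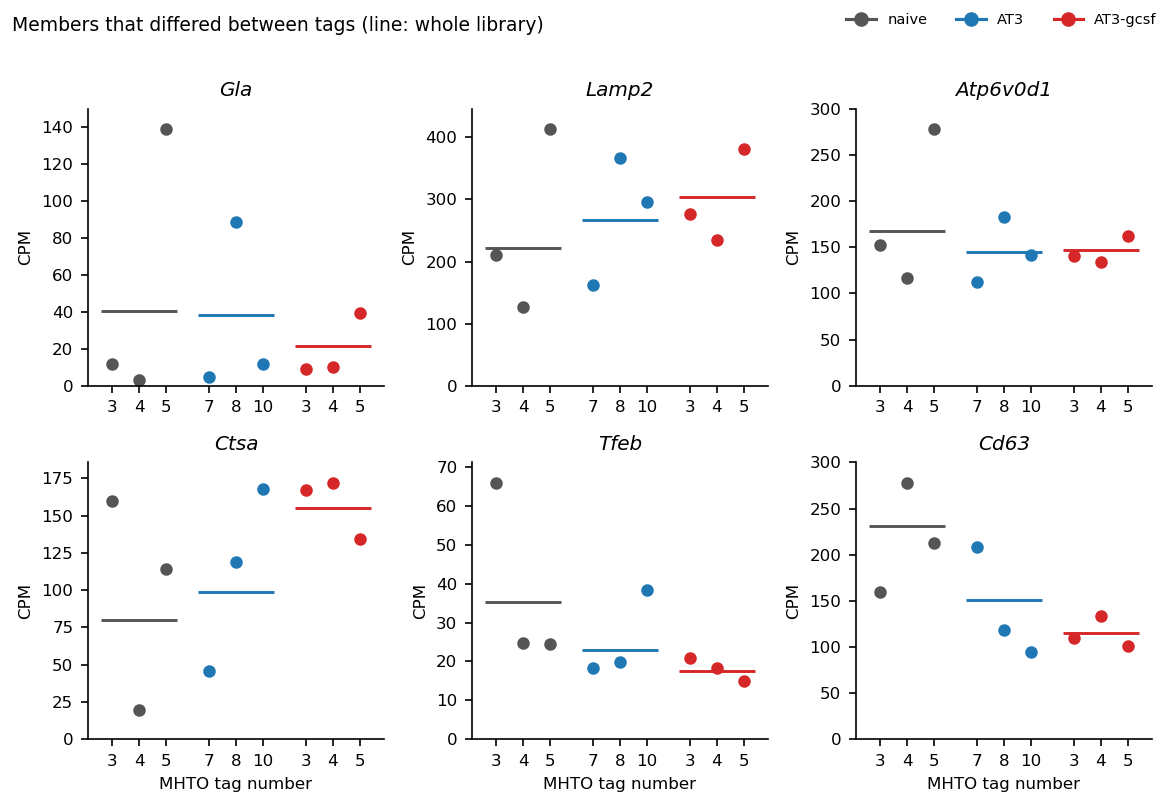
Level in CPM of Gla, Lamp2, Atp6v0d1, Ctsa, Tfeb and Cd63, with 1 point per tagged population and a line at the whole library. Gla, Lamp2 and Atp6v0d1 are highest in naive MHTO5, AT3 MHTO8 and AT3-gcsf MHTO5, Ctsa is lowest in naive MHTO4 at 19.4 CPM, and Cd63 is highest there at 278 CPM.

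Between tags, a gene was counted where its highest population in that library had at least 20 CPM. In the naive library this put Npc1 (23.5 CPM in MHTO3) in and left Ctsc (at most 14.1 CPM) out, unlike the 26 above. Between the tags of the naive library, 12 of 26 listed genes differed at least 2-fold, where 49.0% of 4621 genes did. In the AT3 library 6 of 26 did (31.8% of 3940 genes), namely Ctsa, Ctsb, Ctss, Lamp2, Cd63 and Gla. In the AT3-gcsf library 1 of 26 did, Gla (9.51% of 3587 genes), which met the minimum there through 1 population only. The median log2 ratio of the highest to the lowest population was 0.95, 0.68 and 0.29 for the listed genes and 0.98, 0.74 and 0.37 for all genes measured. The shares and medians of the listed genes lay close to or under those of all genes, and a difference between libraries was not tested.

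With genes counted in the same way, naive MHTO4 was the lowest population for 19 of 26 listed genes (2418 of 4621 genes measured). AT3 MHTO7 was the lowest for 18 of 26 (2333 of 3940) and AT3-gcsf MHTO5 for 18 of 26 (2278 of 3587). A count chosen after the values were seen concerned the populations with the most Cxcl2. Of 25 listed genes that reached 20 CPM in a population of every library, 6 were highest there in all 3 libraries, Gla, Lamp2, Neu1, Atp6v0c, Atp6v0d1 and Atp6v1e1, which is 24.0%, where 15.8% of 3286 genes were. Gla reached 20 CPM through those populations alone, so its place among the 6 was set by the filter.

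Tfeb, the regulator, was at 66.0, 24.7 and 24.6 CPM in the naive tags MHTO3, MHTO4 and MHTO5, at 18.3, 19.8 and 38.5 CPM in AT3 MHTO7, MHTO8 and MHTO10, and at 20.8, 18.4 and 15.0 CPM in AT3-gcsf MHTO3, MHTO4 and MHTO5. One naive and 1 AT3 population stood above the rest, and all AT3-gcsf populations lay below all naive ones. The log2 ratio was -0.53 for AT3 against naive and -0.83 for AT3-gcsf against naive, both under 2-fold. Transcript level does not measure where the protein is, which is how TFEB is known to be controlled.

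The 7 proton pump subunits gave 0 calls in each of the 3 comparisons. Over all genes 2.06% were higher and 6.35% lower in AT3 against naive, 5.38% and 21.0% in AT3-gcsf against naive, and 2.42% and 2.56% in AT3-gcsf against AT3, so a count of 0 among 7 does not set the pump apart. Their log2 ratios ran from -0.26 to 0.39 for AT3 against naive, from -0.37 to 0.42 for AT3-gcsf against naive and from -0.11 to 0.30 for AT3-gcsf against AT3, with medians of -0.14, -0.12 and 0.02. Under TMM scaling all 7 lay above 0 in both comparisons with naive, and the all-gene median for AT3-gcsf against naive moved from -0.37 to 0.26, so no direction is given for the pump as a whole.

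Within the V0 sector, Atp6v0c, which forms the proton-carrying ring, was at 747, 517 and 857 CPM in the naive tags MHTO3, MHTO4 and MHTO5, at 549, 791 and 727 CPM in AT3 MHTO7, MHTO8 and MHTO10, and at 786, 781 and 814 CPM in AT3-gcsf MHTO3, MHTO4 and MHTO5. The 3 libraries overlapped, and the AT3-gcsf populations were the closest to each other. Atp6v0d1, which links the ring to the rotor, was at 153, 117 and 278 CPM in the naive populations, at 112, 183 and 142 CPM in the AT3 populations and at 141, 134 and 162 CPM in the AT3-gcsf populations. Atp6v0e was at 505, 287 and 500 CPM, at 302, 400 and 410 CPM, and at 372, 350 and 378 CPM in the same order. All 3 V0 genes were lowest in naive MHTO4 and AT3 MHTO7.

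Within the V1 sector, Atp6v1g1, a stalk subunit, was at 711, 428 and 545 CPM in the naive tags MHTO3, MHTO4 and MHTO5, at 538, 728 and 984 CPM in AT3 MHTO7, MHTO8 and MHTO10, and at 701, 660 and 633 CPM in AT3-gcsf MHTO3, MHTO4 and MHTO5. Atp6v1b2, the B subunit of the ATP-binding head, was at 239, 115 and 107 CPM in the naive populations, at 109, 109 and 198 CPM in the AT3 populations and at 142, 147 and 101 CPM in the AT3-gcsf populations. It was highest in naive MHTO3 and AT3 MHTO10, not in the populations with the most Cxcl2, where Atp6v0d1 was highest. Atp6v1a, the catalytic subunit of the head, had the narrowest range of the 7, from 54.5 to 81.8 CPM, and all AT3-gcsf populations lay above or level with 75.3 CPM, higher than every naive one. Atp6v1e1, another stalk subunit, lay between 193 and 338 CPM, and its log2 ratio for AT3-gcsf against naive was -0.37.

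**Figure D5:**
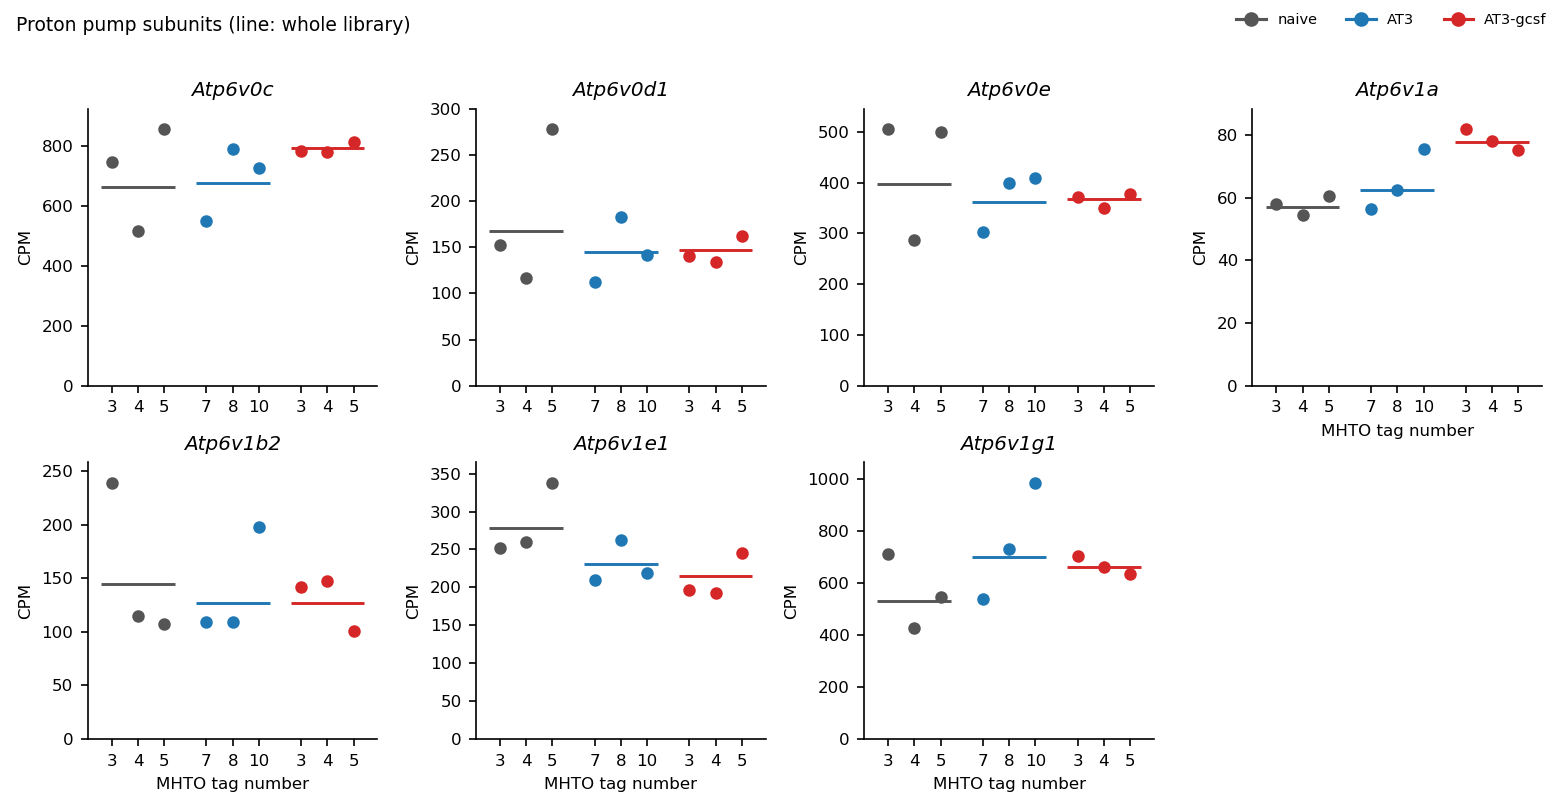
Level in CPM of the 7 proton pump subunits, with 1 point per tagged population and a line at the whole library. The library lines of each subunit lie close together, while naive points spread from 117 to 278 CPM for Atp6v0d1 and from 107 to 239 CPM for Atp6v1b2.

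Another 112 lysosomal genes lay outside the list, of which 44, 46 and 41 reached 20 CPM in a library of the 3 comparisons. In AT3 against naive 1 was higher and 2 lower, beside all-gene shares of 2.06% and 6.35%. In AT3-gcsf against naive 3 were higher and 7 lower, beside 5.38% and 21.0%, and in AT3-gcsf against AT3 1 was higher and 0 lower, beside 2.42% and 2.56%. These counts are near or under the background. Their median log2 ratios were -0.22, -0.08 and 0.15. Ctsl, which encodes cathepsin L, a further cysteine protease, was at 23.1, 8.10 and 80.5 CPM in the naive tags MHTO3, MHTO4 and MHTO5, at 48.0, 221 and 50.3 CPM in AT3 MHTO7, MHTO8 and MHTO10, and at 124, 180 and 311 CPM in AT3-gcsf MHTO3, MHTO4 and MHTO5. Its log2 ratio was 1.74 for AT3 against naive and 2.65 for AT3-gcsf against naive, and the former was 0.59 without AT3 MHTO8, which ended that call. Pla2g15, a lysosomal phospholipase, had 4.71, 13.8 and 38.3 CPM in the 3 libraries, with log2 ratios of 2.16 for AT3-gcsf against naive and 1.20 for AT3-gcsf against AT3; the latter was 0.85 without AT3 MHTO7. It reached 20 CPM only in the AT3-gcsf library, where it was high. The other gene higher in AT3-gcsf against naive was Scarb2, the receptor that sorts glucocerebrosidase, named after its values were seen, with 47.8, 68.7 and 118 CPM. Its log2 ratio was 1.22, and 0.62 without naive MHTO4, which ended the call.

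For AT3-gcsf against naive the log2 ratio was -1.90 for Slc15a3, a peptide transporter, -1.71 for Tpcn1, a cation channel, -1.28 for Cln3, -1.22 for Plekhm1, which acts in lysosome fusion, -1.42 for Rogdi, which belongs to the pump list, -1.27 for Ppp3ca, the calcineurin subunit that acts on TFEB, and -1.22 for Fnip1. Tpcn1 and Plekhm1 reached 20 CPM only in the naive library, where they were high. Rogdi and Tpcn1 were also past 2-fold in AT3 against naive, at -1.09 and -1.36, and the ratio of Tpcn1 there was -0.88 without naive MHTO3 and that of Rogdi -0.65 under TMM scaling. Under TMM scaling the ratio for AT3-gcsf against naive was -0.89 for Rogdi, -0.72 for Cln3, -0.74 for Plekhm1, -0.69 for Ppp3ca and -0.69 for Fnip1, so these 5 calls ended. Without naive MHTO5, where Slc15a3 reached 811 CPM, its ratio was -0.55 and the call ended.

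Per cell, the 8 proteases gave a mean of 3.96 UMIs in naive, 9.36 in AT3 and 18.8 in AT3-gcsf neutrophils, and the 7 pump subunits 8.50, 15.5 and 21.1 UMIs. The median UMI count per cell had the same order, from 2775 to 7611, so sequencing depth and transcript content per cell cannot be told apart here. In cells thinned to 1000 UMIs each, which left out 5 to 82 shallower cells per population, the log2 ratio for AT3-gcsf against naive was 2.05 for Ctsb, 3.03 for Ctsc and 2.19 for Ctss.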

How the data were processed

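Single-cell RNA-seq of tagged mouse neutrophils was measured on the 10x Chromium version 3 system, per the labels' protocols. The authors deposited raw UMI counts per gene and cell, and separate counts of hashtag barcodes. Cell Ranger 4.0.0, bcl2fastq 2.20.0.422 and build mm10 are named in the submitters' processing notes; these sources name no program for the hashtag counts. Doublets were not called: cells without a dominant tag, which hold doublets of different tags, were left out. Each library was paired with 1 hashtag file. A dominant tag was found for 94.1% to 97.4% of called barcodes with the paired file and at most 0.672% with the others. Barcode overlap alone did not separate the files paired with the naive and AT3 libraries. Each of them held 7735 of 7738 naive and 7838 of 7840 AT3 called barcodes. Counts were summed per library and per tag and divided by the sum (CPM) with Python 3.11.15, numpy 2.4.6 and pandas 2.3.3. TMM factors came from edgeR 4.0.16. The ratio step was tested on simulated data with known changes. Alternatives changed the scaling, pseudocount, minimum, cell filters, tag rule, depth and weights, or left out 1 population; leaving out cells with UMIs of several other cell types, and shared barcodes, were added after seeing the data. The 30 members and the lists were chosen with earlier results of these data known. Values in every population were given for members past 2-fold and the 6 with the highest CPM, and of other lysosomal genes past 2-fold, up to 4 per list and comparison were named by size; population values of further members were added after seeing them. Positions are from GENCODE vM21 (GRCm38). Genes with overlapping neighbours on the other strand were kept.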

Additional observations from a re-analysis of the deposited data

Results flagged for a closer look

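The cells with a dominant tag but under 2% S100a8 plus S100a9 entered no comparison. There were 395 of them in the naive, 196 in the AT3 and 130 in the AT3-gcsf library. The 30 genes summed to 7082 CPM (6930 to 7237) in these AT3-gcsf cells, above the 6783 CPM (6692 to 6876) in the naive ones, while the AT3 ones stood at 6659 CPM (6548 to 6772). Markers of lung epithelium, with the club cell gene Scgb1a1 the highest, summed to 32003, 75384 and 69444 CPM in the naive, AT3 and AT3-gcsf cells of this kind. Erythroid markers summed to 13200, 1499 and 17.3 CPM and dendritic cell markers to 9471, 4190 and 1137 CPM. Early neutrophil markers summed to 2156, 858 and 1037 CPM, monocyte markers to 1517, 1978 and 1513 CPM, and strict macrophage markers to 787, 319 and 323 CPM. The part of these cell types in the sums was not tested.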

How the results depend on the processing

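Over 22 alternatives, the counts of genes past 2-fold stayed within 1.5 times the reported value in 167 values and moved further in 22. The direction of no called ratio turned. A count cannot change when the population left out is from a library it does not use. Part of the 167 values therefore could not move, nor could part of the alternatives counted for Ctsc below. Leaving out each tagged population in turn gave 1 to 4 genes higher and 0 to 2 lower in AT3 against naive, 3 to 5 higher and 0 to 4 lower in AT3-gcsf against naive, and 1 to 3 higher and 0 to 1 lower in AT3-gcsf against AT3; the lowest count, 1, came without naive MHTO4 and the 4 lower came there too. Under TMM scaling 8 genes were higher in AT3-gcsf against naive and 0 lower in AT3 against naive; with totals that left out the 20 most abundant genes these were 5 and 0. Relative to the median of all genes, the members' median for AT3-gcsf against naive was 0.47, 0.43 under TMM and 0.31 with the totals that left out those 20 genes. With equal weight for populations 1 gene was lower in AT3-gcsf against naive. With a minimum of 50 CPM, 0 genes differed 2-fold between AT3-gcsf tags, since Gla was under it; the minimum also ended the call of Ctsc for AT3 against naive. Ctsc was otherwise called in 21 of 22 alternatives there and in 22 of 22 in the other comparisons. No paired analysis was possible because each condition has 1 library. The limits are 1 library per condition, tags not tied to tissues, and cells deeper in the AT3-gcsf library; p-values could not be given.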
